A study of Homo sapiens with 4 samples.

Results

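The heterogeneous nuclear ribonucleoproteins (HNRNP genes) and the serine/arginine-rich splicing factors (SRSF genes) were followed in K562 cells before and after hemin treatment. Members were taken by name from the gene tables, as every gene whose symbol begins with HNRNP or SRSF. Names of 135 pseudogenes and 1 opposite-strand transcript were dropped, and the read-through gene HNRNPUL2-BSCL2 was kept. This left 38 of the 61498 genes in the files, of which 26 were HNRNP and 12 SRSF. K562 is a single human erythroleukemia line, and hemin, a porphyrin that holds iron, induces its erythroid differentiation. Poly(A) RNA was sequenced from 2 untreated libraries and from 2 libraries of cells kept in 50 µM hemin for 108 h. The libraries titled WHITE and RED are those that the study's methods call untreated and treated by hemin. The untreated cells are of the same line, and their titles name no agent. No label says that the libraries of a condition came from separate cultures, so the p-values measure the spread between these libraries only, which may be technical.

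The proteins of both families bind pre-mRNA in the nucleus and help to choose which splice sites are used. As background, the SR proteins carry a domain rich in serine-arginine repeats and mostly favour the inclusion of exons by binding enhancer sequences, whereas many hnRNP proteins bind silencer sequences, coat nascent RNA and act in export and mRNA stability. Many of these genes limit their own expression through splice forms that are removed by nonsense-mediated decay, and erythroid maturation is known for wide changes in splicing.

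The RSEM expected counts summed to between 7455447 and 8241534 per library, and the mitochondrial genome took 12.8% to 13.6% of them. Of 11 erythroid markers, all passed the count filter, 4 rose (HBZ, HBE1, LMO2 and TFRC) and 1 fell (NFE2), against 7.00% and 7.14% of all genes tested. DESeq2 did not call NFE2 (adjusted p = 0.0643), and in edgeR fits that left out 1 library the highest adjusted p was 0.106 for NFE2 and 0.0579 for LMO2. Their summed level was 5625 and 5864 TPM in the untreated libraries and 7188 and 6726 TPM in the hemin-treated libraries. Of 7 markers of other cell types, CD3E and MS4A1 were at 0 in every library and only EPCAM passed the filter, with 288 to 319 counts. The summed level of these 7 markers was 43.97 to 52.16 TPM, with the lowest and the highest values both in hemin-treated libraries.

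HNRNP and SRSF mRNA made up more of the sequenced RNA in the hemin-treated than in the untreated libraries. The count filter left 33 members, 22 HNRNP and 11 SRSF, and the fitted change was toward higher expression in all 33. For 7 of these, none of them called, the sign turned in an alternative: SRSF4 and SRSF11 when libraries were scaled by their total alone, HNRNPH3, HNRNPUL2, SRSF4 and SRSF9 with limma on TPM, HNRNPA1L2 with posterior mean counts, and HNRNPA1L2, HNRNPUL2-BSCL2, SRSF4 and SRSF11 with a library left out. The expression of 18 members rose, 13 HNRNP and 5 SRSF, and no member fell (edgeR's quasi-likelihood test on counts, Benjamini-Hochberg adjusted over 14458 genes, threshold 0.05). This was 54.5% of the members tested, against 7.00% of all genes tested that were called higher after hemin and 7.14% that were called lower. The changes were small, with increases of 13.4% to 34.4% among the called members. At an unadjusted p under 0.05, 16 HNRNP and 7 SRSF members were higher and 0 were lower, against 14.8% and 14.6% of all genes tested. DESeq2 called 18 members higher and 0 lower, against 4.99% of all genes it tested, and 18 members were called by both tools.

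These members are abundant, and abundance bears on what a count test can call. Among the 1459 genes with a mean of at least 1000 counts, 25.8% were called higher and 9.94% lower. Of the members, 26 lay above that level, and they included all 18 that rose. The median log2 fold change was 0.21 over these 26 members and 0.06 over the 1459 genes. Over all members tested the median was 0.19 for HNRNP and 0.22 for SRSF, against -0.0048 for all 14458 genes. A positive log2 fold change was found in 49.1% of all genes tested and in 65.1% of those with at least 1000 counts. When the libraries were scaled by their total alone, 729 of all genes were called higher and 1358 lower, in place of 1012 and 1033. Under that scaling 12 HNRNP and 5 SRSF members were called higher and 0 lower, against 5.04% and 9.39% of all genes tested.

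**Figure D1:**
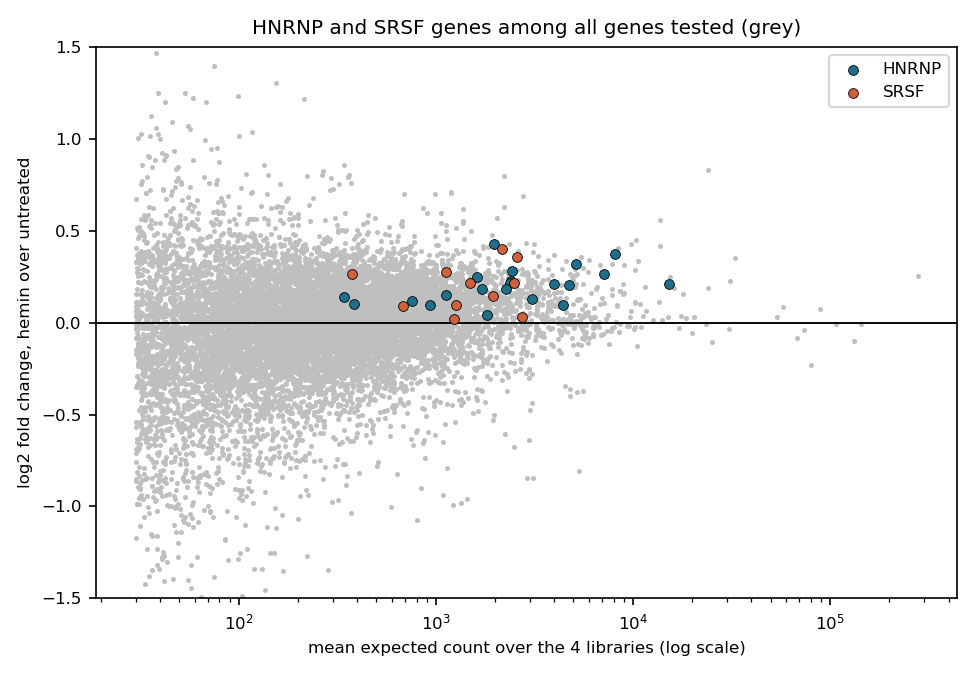
Log2 fold change (hemin over untreated, y axis) against the mean expected count of the 4 libraries (x axis, log scale), for the 11667 of 14458 genes tested with a mean of at least 30 counts and a change within 1.5 in either direction (grey), with HNRNP genes in blue and SRSF genes in orange. All members drawn lie above 0 (SRSF4 and SRSF11 turn below it with scaling by library total alone, HNRNPH3, HNRNPUL2, SRSF4 and SRSF9 with limma on TPM, and HNRNPUL2-BSCL2, SRSF4 and SRSF11 with a library left out) and most lie above 1000 counts; HNRNPA1L2, with fewer than 30 counts, is not drawn.

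The separation of the conditions was also read from the values without a test, but not with scaling by library total alone. After TMM scaling, both hemin-treated values exceeded both untreated values in 28 of 33 members, 20 HNRNP and 8 SRSF. Of all genes tested, both were higher in 28.1% and lower in 29.3%. The TPM scale also divides by the estimated transcript length. On it, both hemin-treated values were higher in 25 members, against 21.3% of all genes tested, and lower in 28.5% of all genes. Taken as families, HNRNP genes made up 0.789% and 0.770% of all TPM in the untreated libraries and 0.893% and 0.886% in the hemin-treated libraries. The SRSF genes made up 0.200% and 0.199% before and 0.231% and 0.223% after hemin. The values did not overlap for either family, and the hemin mean was 1.14 times the untreated mean for HNRNP and 1.13 times for SRSF. With 2 libraries against 2, an exact two-sided permutation test cannot go below p = 0.333, so no test was made of these shares. TPM gives a share of the sequenced RNA, and in bulk RNA a change in the number of cells of a kind cannot be told apart from a change in RNA per cell.

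**Figure D2:**
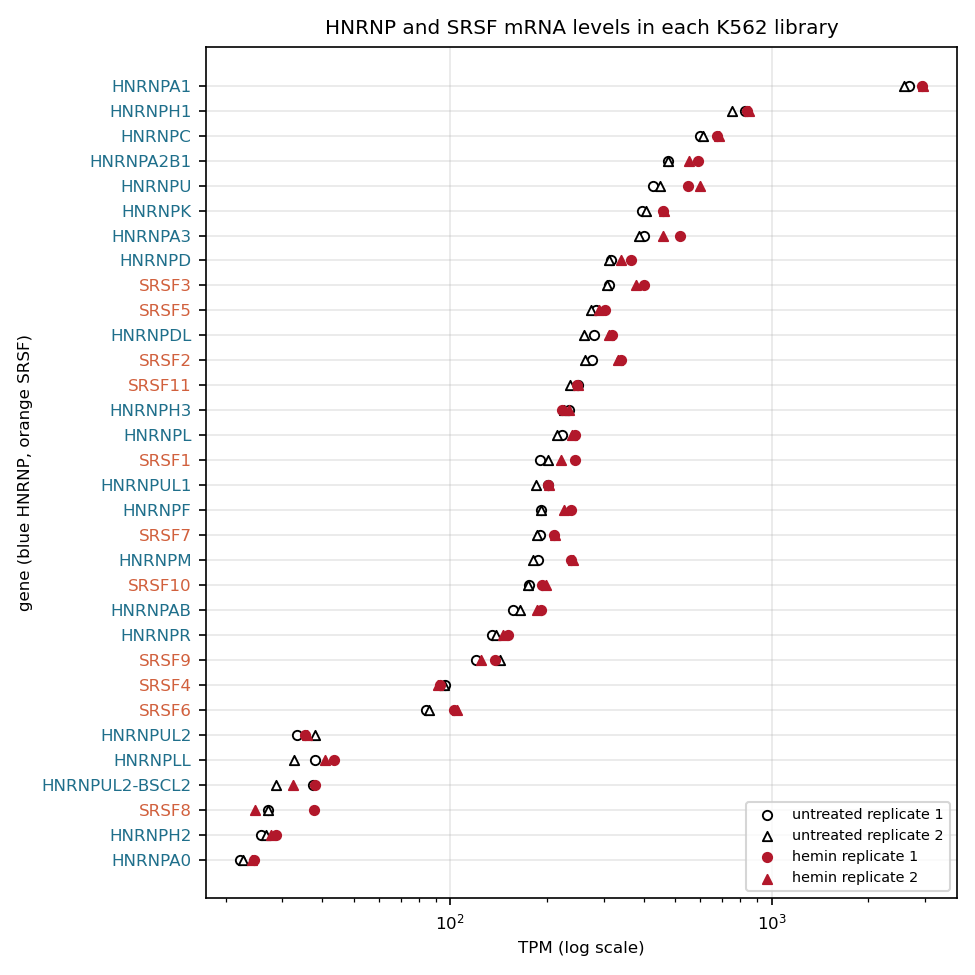
TPM (x axis, log scale) of 32 HNRNP and SRSF genes (y axis) in each library, ordered by untreated level, with open black symbols for untreated and filled red symbols for hemin-treated libraries (circle replicate 1, triangle replicate 2). HNRNPA1 stands at the top at 2588 to 2958 TPM, and in HNRNPM, HNRNPU, SRSF3 and SRSF2 the red symbols lie clear to the right of the black ones.

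The promoters of the members with the largest increases that could be shown, and of the SRSF gene with the smallest change, are given first, so that the members can be compared at the sequence level. The sequences are from RefSeq (GRCh38.p14), which held promoters of 35 of the 38 members, and they run 5′ to 3′ on the strand of the gene up to the first base that GENCODE 44 places inside the gene. The window of HNRNPM lay mostly inside an annotated exon and is not printed. Capitals mark the letters CCAAT or ATTGG (the CCAAT box on either strand), TATAAA or TTTATA (the TATA box) and CCGGAAG or CTTCCGG (the core bound by ETS factors). SRSF3 stands at chr6:36594112-36594352 (plus strand), HNRNPU at chr1:244864561-244864793 (minus strand) and SRSF4 at chr1:29181901-29182150 (minus strand). These 3 genes were chosen after their values were seen.
SRSF3: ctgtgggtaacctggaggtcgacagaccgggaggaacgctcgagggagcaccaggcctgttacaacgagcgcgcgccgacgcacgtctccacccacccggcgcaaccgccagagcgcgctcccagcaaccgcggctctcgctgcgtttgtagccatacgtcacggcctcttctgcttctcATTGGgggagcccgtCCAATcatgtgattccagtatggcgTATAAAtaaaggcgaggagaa
HNRNPU: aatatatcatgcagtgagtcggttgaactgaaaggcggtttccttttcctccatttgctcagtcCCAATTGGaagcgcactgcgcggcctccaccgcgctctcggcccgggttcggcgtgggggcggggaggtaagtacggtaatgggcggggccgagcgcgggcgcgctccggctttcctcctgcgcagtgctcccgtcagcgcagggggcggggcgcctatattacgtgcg
SRSF4: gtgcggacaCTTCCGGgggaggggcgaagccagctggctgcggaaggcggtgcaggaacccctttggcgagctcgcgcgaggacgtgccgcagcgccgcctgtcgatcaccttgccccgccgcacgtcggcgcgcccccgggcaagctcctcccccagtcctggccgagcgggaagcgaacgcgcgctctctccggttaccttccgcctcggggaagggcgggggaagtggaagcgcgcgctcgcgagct
The SRSF3 promoter held a CCAAT box on each strand, 70 and 55 bases before the RefSeq start, and TATAAA 30 bases before it. In HNRNPU the boxes on both strands overlap in a single palindromic run that begins 186 bases before the start, and it had no TATA box within these letters. SRSF4 held neither, and its only marked run was the ETS core 241 bases before the start. GC content was 61.8% for the SRSF3 stretch, 64.8% for HNRNPU and 73.6% for SRSF4.

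Motif letters were counted in the 250 bases before the RefSeq start, on both strands, in the 16 members that rose and the 15 members that passed the filter without being called, where RefSeq held a window. The CCAAT box was found in 11 of the 16 and 8 of the 15, against 37.0% of 27305 genes. The 8 include HNRNPUL2 and its read-through HNRNPUL2-BSCL2, whose annotated starts lie close together on the same strand. TATAAA was found in 5 of the 16 (HNRNPAB, HNRNPC, HNRNPD, SRSF3 and SRSF7) and 1 of the 15 (SRSF11), against 13.0% of all genes. The E-box CACGTG was found in 4 of the 16 and 2 of the 15, against 7.73%. The 4 include HNRNPM, whose window lay mostly inside an annotated exon. The ETS core was found in 2 of the 16 and 3 of the 15, against 10.2%. The palindrome TGACGTCA, bound by CREB factors, was in no window of a member and in 2.03% of all genes. The median GC content was 64.8% over 49 member windows and 58% over 35116 windows of all genes. These are matches of letters, with no measure of binding.

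**Figure D3:**
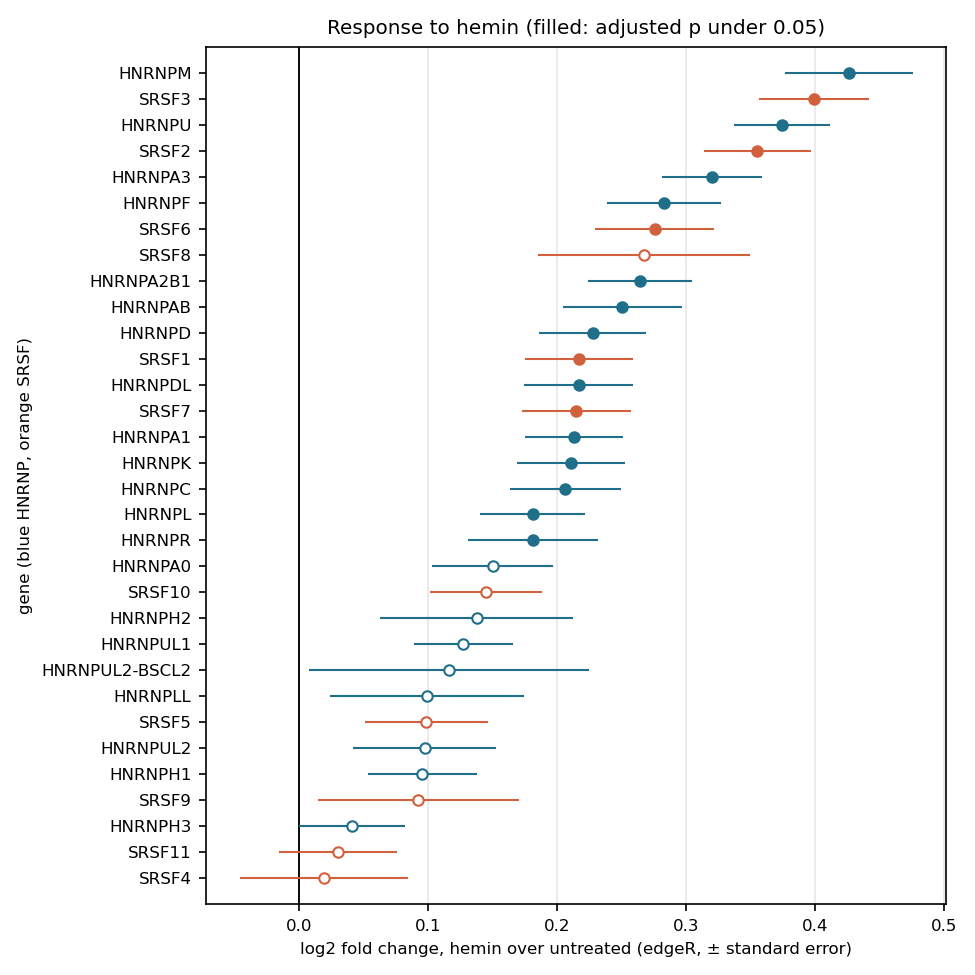
Log2 fold change after hemin (x axis, edgeR, with standard error bars) for 32 HNRNP (blue) and SRSF (orange) genes, ordered by size; filled points passed an adjusted p of 0.05. The values run from 0.02 for SRSF4 to 0.43 for HNRNPM, and no point lies below 0, although the sign turns for SRSF4 and SRSF11 with scaling by library total alone, for HNRNPH3, HNRNPUL2, SRSF4 and SRSF9 with limma on TPM, and for HNRNPUL2-BSCL2, SRSF4 and SRSF11 with a library left out.

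The A/B and D type hnRNP proteins, which carry paired RNA recognition motifs, included the most abundant member. Of 8 members of this type that were tested, 6 rose, with a median log2 fold change of 0.22 over the 8. HNRNPA1 (chromosome 12, 54280193 to 54287088), a splicing repressor that shuttles between nucleus and cytoplasm, had 2676 and 2588 TPM in untreated cells and 2944 and 2958 TPM after hemin. It ranked 38 among all genes by mean TPM and made up 33.8% of HNRNP TPM before and 33.2% after hemin. Both treated values lay above both untreated values, and HNRNPA1 rose by 0.21 ± 0.04 on the log2 scale (SE, edgeR adjusted p = 0.00718).

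HNRNPA3 (chromosome 2, 177212694 to 177223959), a close relative of HNRNPA1, had 402 and 388 TPM in untreated cells and 518 and 460 TPM after hemin. Its log2 fold change of 0.32 ± 0.04 (edgeR adjusted p = 0.00114) was the largest of this type. Per HNRNPA1 count, 0.327 and 0.319 HNRNPA3 counts were read before hemin and 0.345 and 0.351 after. HNRNPA3 shares 53.6% of its exonic bases with NFE2L2 on the opposite strand, a gene read by 525 to 702 counts per library while HNRNPA3 had 4414 to 5880. The study's methods name no strand option for the counting, so it is not known whether reads from that stretch were told apart by strand. RSEM's posterior SD for HNRNPA3 was 1.22% of its count.

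HNRNPA2B1 (chromosome 7, 26171151 to 26201529), which acts in splicing and in the sorting of RNA for transport, had 475 and 476 TPM before and 592 and 552 TPM after hemin. It rose by 0.26 ± 0.04 (edgeR adjusted p = 0.00377). HNRNPAB (chromosome 5, 178204533 to 178211163) had 157 and 165 TPM before and 192 and 186 TPM after hemin, and rose by 0.25 ± 0.05 (edgeR adjusted p = 0.00813). The increase of HNRNPAB was past the threshold in 3 of the 4 fits that left out 1 library, and its adjusted p was 0.0557 without untreated replicate 1.

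HNRNPD, known as AUF1, binds AU-rich elements and acts in mRNA decay, and HNRNPDL is its neighbour and relative. The genes lie 48.1 kb apart on the minus strand of chromosome 4, HNRNPD from 82352498 to 82374503 and HNRNPDL from 82422565 to 82430462. HNRNPD had 316 and 311 TPM in untreated cells and 364 and 339 TPM after hemin. HNRNPDL had 280 and 262 TPM before and 319 and 312 TPM after. Treated values of both genes stood above the untreated ones, with increases of 0.23 ± 0.04 for HNRNPD (edgeR adjusted p = 0.00786) and 0.22 ± 0.04 for HNRNPDL (edgeR adjusted p = 0.0105). The ratio of their counts did not separate the conditions, at 0.987 and 1.01 HNRNPD counts per HNRNPDL count before hemin and 1.02 and 0.989 after. Without untreated replicate 2, the call of HNRNPDL was lost (edgeR adjusted p = 0.0595).

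The remaining members of this type did not pass the test in the reported fit. HNRNPA0, which has a single annotated transcript, had 22.2 and 22.7 TPM before and 24.5 and 24.2 TPM after hemin, with a log2 fold change of 0.15 ± 0.05 (edgeR adjusted p = 0.0637), and it was called without a count filter, with at least 20 counts and with posterior mean counts. HNRNPA1L2, an intron-poor copy of HNRNPA1, was read by 26, 0, 27 and 0 counts in untreated replicates 1 and 2 and hemin replicates 1 and 2. Its counts followed the library number and not the condition, and all of its exonic bases lie inside another annotated gene on the same strand. RSEM's posterior mean was 43.9 and 16.6 counts for the untreated and 39.6 and 7.62 counts for the hemin-treated libraries, with posterior SDs of 7.16 to 16.6 counts, so its level was not resolved.

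HNRNPC (chromosome 14, 21209136 to 21269494), which binds uridine tracts along nascent transcripts, was the only member of the C type that passed the filter. It had 597 and 613 TPM in untreated cells and 678 and 687 TPM after hemin. The treated values were the higher pair, and HNRNPC rose by 0.21 ± 0.04 (edgeR adjusted p = 0.0135), a call that was lost without untreated replicate 1 (edgeR adjusted p = 0.0791). Its copies HNRNPCL1, HNRNPCL2, HNRNPCL3 and HNRNPCL4 on chromosome 1 had 1 count at most in any library. Counts this low fall under the 3 counts per library that a count of 0 allows, which was 0.364 to 0.402 CPM (counts per library total), and this limit covers counting error only.

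The F/H proteins bind runs of guanine near splice sites, and their genes were not uniform. Of 4 members tested only HNRNPF passed the threshold. HNRNPF (chromosome 10, 43385617 to 43409186) had 191.3 and 191.1 TPM before and 237 and 225 TPM after hemin. Its replicates lay close together in untreated cells and well below both treated values, with an increase of 0.28 ± 0.04 (edgeR adjusted p = 0.00398). HNRNPH1 (chromosome 5, 179614178 to 179634784), the second most abundant HNRNP gene, had 829 and 754 TPM in untreated cells and 841 and 850 TPM after hemin. The first untreated library of HNRNPH1 was near the treated ones, and the log2 fold change of 0.10 ± 0.04 did not pass (edgeR adjusted p = 0.167). HNRNPH3 had the smallest value of the HNRNP family, 0.04 ± 0.04 (edgeR adjusted p = 0.565), with 235 and 226 TPM before and 222 and 234 TPM after hemin. HNRNPH2, the low-level copy on chromosome X, stood at 0.14 ± 0.07 (edgeR adjusted p = 0.260).

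The balance within the F/H type is also given as count ratios, which are made from the same counts as these fold changes. There were 0.485 and 0.540 HNRNPF counts per HNRNPH1 count in untreated cells and 0.589 and 0.576 after hemin. Per HNRNPH3 count there were 1.20 and 1.27 HNRNPF counts before and 1.47 and 1.44 after. Neither ratio overlapped between conditions. These pairs, like the other count ratios given, were picked after the values were seen and carry no test.

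Of the K, L, M and R genes, 4 of 5 rose, and HNRNPM had the largest log2 fold change of all 33 members. HNRNPM (chromosome 19, 8444767 to 8489114, plus strand), a regulator of alternative splicing that binds GU-rich RNA, had 188 and 181 TPM in untreated cells and 238 and 241 TPM after hemin. The conditions were far apart compared with the replicates, at 184 ± 4.75 against 239 ± 2.40 TPM (mean ± SD, n = 2 each). Its counts were 1688 and 1678 before and 2255 and 2292 after, an increase of 34.4% or 0.43 ± 0.05 on the log2 scale (edgeR adjusted p = 0.000913). With each library left out in turn, the fold change of HNRNPM ran from 0.38 to 0.48 and its adjusted p reached 0.0105 at most.

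HNRNPK (chromosome 9, 83968083 to 83980631), a KH-domain protein that binds cytosine-rich sequences in RNA and DNA, had 394 and 408 TPM before and 461 and 463 TPM after hemin. It rose by 0.21 ± 0.04 (edgeR adjusted p = 0.0116), and the call was lost without untreated replicate 1 (edgeR adjusted p = 0.0712). HNRNPL, which binds CA repeats, and HNRNPR, a relative of SYNCRIP, each rose by 0.18, with SEs of 0.04 and 0.05 and edgeR adjusted p of 0.0189 and 0.0418. HNRNPL was called in 1 of the 4 fits that left out 1 library, and it was lost without untreated replicate 1, untreated replicate 2 or hemin replicate 2 (highest edgeR adjusted p = 0.0858). HNRNPR was called in 1 of these 4 as well (highest edgeR adjusted p = 0.212), and it was also lost when the libraries were scaled by total alone and when replicate number was added to the fit. HNRNPLL, the relative of HNRNPL that is known from the splicing of CD45 in T cells, had a log2 fold change of 0.10 ± 0.08 (edgeR adjusted p = 0.432).

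HNRNPU (chromosome 1, 244840638 to 244864560, minus strand), also called scaffold attachment factor A, binds RNA and chromatin in the nucleus. It was read by 7350 and 6812 counts in untreated cells and by 8797 and 9666 counts after hemin, or 427 and 448 TPM against 550.5 and 600.2 TPM. The treated libraries were well above the untreated ones, with an increase of 29.7% or 0.37 ± 0.04 on the log2 scale (edgeR adjusted p = 0.00048), the smallest adjusted p of the 33 members. HNRNPU shares 15.6% of its exonic bases with COX20 on the opposite strand, which had 403 to 444 counts per library. Its share of HNRNP TPM was 5.42% and 5.82% before and 6.17% and 6.77% after hemin.

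The related U-type genes were not called in the reported fit. HNRNPUL1 had a log2 fold change of 0.13 ± 0.04 (edgeR adjusted p = 0.0563), with 201 and 185 TPM before and 202 and 203 TPM after hemin. The increase of HNRNPUL1 passed the threshold with RLE scaling (size factors from the median ratio of each library to a reference), with scaling that left out mitochondrial genes, without a count filter, with at least 20 counts and with posterior mean counts. HNRNPUL2 and the read-through HNRNPUL2-BSCL2 overlap on chromosome 11 and share 2391 exonic bases, so RSEM divided their reads by estimate. HNRNPUL2 had 890 and 916 counts before and 929 and 1015 after (0.10 ± 0.06, edgeR adjusted p = 0.282). The read-through had 832 and 614 counts before and 811 and 762 after, with the untreated libraries on either side of the treated ones (0.12 ± 0.11, edgeR adjusted p = 0.531). The posterior SD of the counts was 3.44% for HNRNPUL2 and 5.18% for the read-through. Per HNRNPUL1 count there were 2.42 and 2.39 HNRNPU counts in untreated cells and 2.83 and 2.88 after hemin.

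Among the SR proteins, 5 of 11 members tested rose, and SRSF3 and SRSF2 led. SRSF3 (chromosome 6, 36594353 to 36605600, plus strand), the smallest SR protein and an adaptor for mRNA export, had 311 and 307 TPM in untreated cells and 401 and 377 TPM after hemin. Its counts of 1904 and 1823 before and 2418 and 2523 after hemin gave an increase of 31.9% or 0.40 ± 0.04 on the log2 scale (edgeR adjusted p = 0.000674). The untreated libraries differed by little, and both treated libraries were far above them. The promoter printed above with the TATA box belongs to this gene. SRSF3 was the most abundant SRSF gene per length, and its share of SRSF TPM was 15.5% and 15.4% before and 17.4% and 16.9% after hemin.

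SRSF2 (chromosome 17, 76734115 to 76737333), also called SC35 and known as a gene mutated in myeloid neoplasms, had 276 and 263 TPM before and 339 and 333 TPM after hemin. It rose by 0.36 ± 0.04 (edgeR adjusted p = 0.001), and 27.7% of its exonic bases are shared with MFSD11 on the opposite strand, which had 222 to 269 counts per library against 2242 to 3009 for SRSF2. SRSF6 (chromosome 20, 43457893 to 43466046) had 84.2 and 86.0 TPM before and 102 and 105 TPM after hemin, an increase of 0.28 ± 0.05 (edgeR adjusted p = 0.00559). In both genes the treated values were clear of the untreated ones, and both were called in every fit that left out 1 library.

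SRSF1 (chromosome 17, 58000919 to 58007346), the founding SR protein, had 191 and 202 TPM in untreated cells and 245 and 221 TPM after hemin. SRSF7 (chromosome 2, 38743599 to 38751494), which like SRSF3 serves as an export adaptor, had 190 and 186 TPM before and 210 and 211 TPM after. Both rose, SRSF1 by 0.22 ± 0.04 (edgeR adjusted p = 0.0102) and SRSF7 by 0.22 ± 0.04 (edgeR adjusted p = 0.011). The call of SRSF1 was lost without untreated replicate 2 (edgeR adjusted p = 0.0575) and that of SRSF7 without untreated replicate 1 (edgeR adjusted p = 0.0508). SRSF7 counts per SRSF3 count went from 0.746 and 0.736 to 0.645 and 0.659. Of the SRSF1 exonic bases, 32.7% belong also to another annotated gene on the same strand. That gene had 76 and 113 counts before and 13 and 55 after hemin.

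The other 6 SRSF members tested were not called in the reported fit. SRSF5, which ranked among the most abundant of the family, had 284 and 275 TPM before and 302.5 and 289.7 TPM after hemin, with a log2 fold change of 0.10 ± 0.05 (edgeR adjusted p = 0.201). SRSF10, a splicing repressor when dephosphorylated, stood at 0.15 ± 0.04 (edgeR adjusted p = 0.0552), and SRSF8, an intron-poor relative of SRSF2, at 0.27 ± 0.08 (edgeR adjusted p = 0.0597). Both were called without a count filter, with at least 20 counts and with posterior mean counts, and SRSF10 also with RLE scaling and without hemin replicate 1. Counts and TPM differed for SRSF8, which had 328 and 355 counts before and 403 and 424 after hemin, but 27.1 TPM in both untreated libraries and 37.8 and 24.6 TPM after hemin. SRSF9, which shares 43.6% of its exonic bases with GATC on the opposite strand, stood at 0.09 ± 0.08 (edgeR adjusted p = 0.481). SRSF12 had 1 count at most in any library and was not tested.

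SRSF4 and SRSF11 were closest to no change. SRSF4 (chromosome 1, 29147743 to 29181900, minus strand), whose promoter is printed above, had 1345 and 1112 counts before and 1231 and 1270 after hemin, with a log2 fold change of 0.02 ± 0.07 (edgeR adjusted p = 0.884). In TPM it stood slightly lower after hemin, at 92.9 and 91.4 against 96.2 and 95.6, and the sign of its change in counts turned with scaling by library total alone (-0.02). SRSF11 had 249 and 235 TPM before and 248.8 and 249.5 TPM after hemin (0.03 ± 0.05, edgeR adjusted p = 0.720), and its sign turned with the same scaling (-0.0088). SRSF3 counts per SRSF4 count went from 1.42 and 1.64 to 1.96 and 1.99, and SRSF2 counts per SRSF11 count from 0.800 and 0.873 to 1.08 and 1.01. Neither ratio overlapped between conditions.

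**Figure D4:**
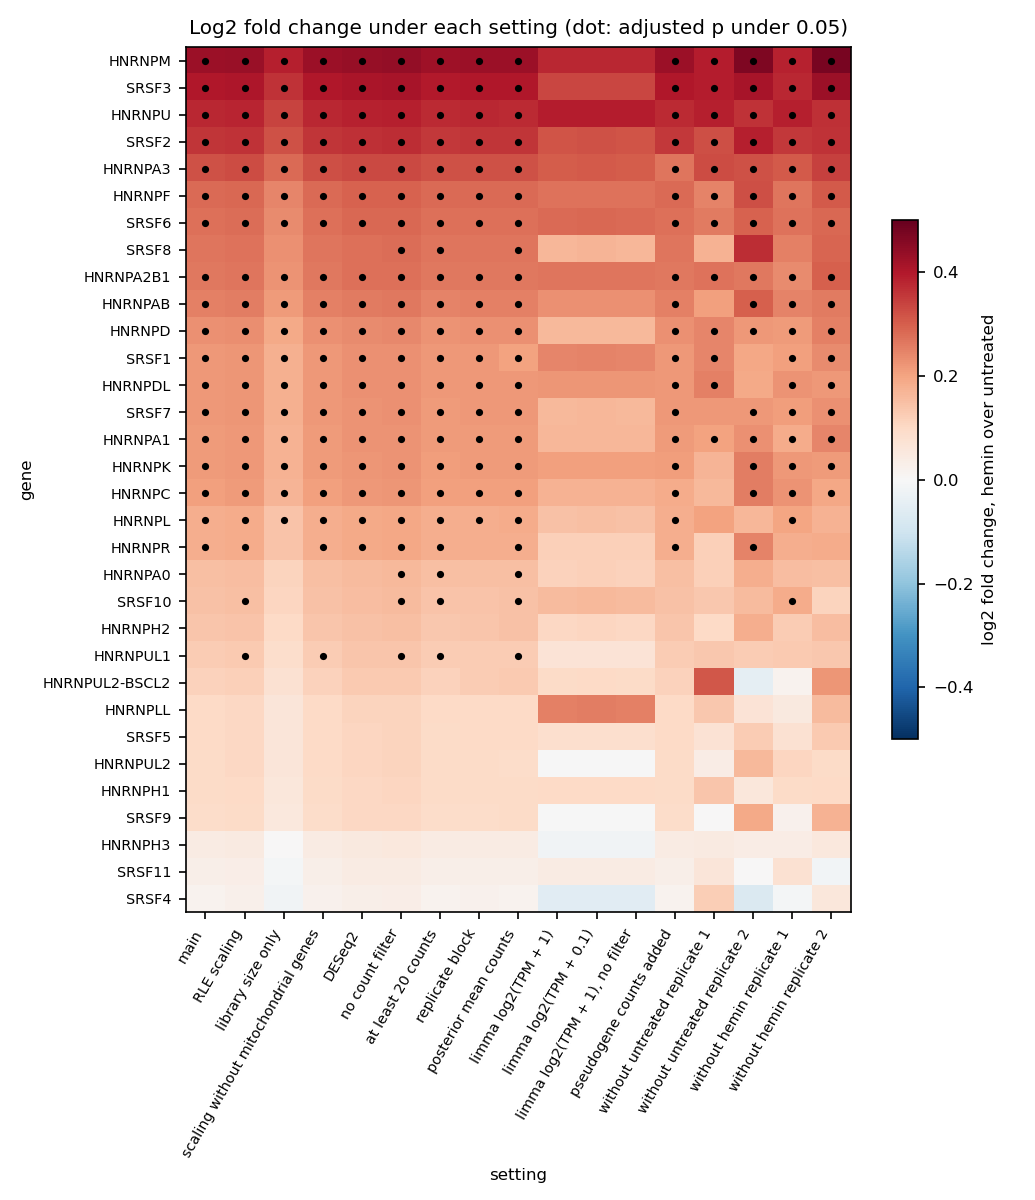
Log2 fold change (colour, hemin over untreated) of 32 HNRNP and SRSF genes (rows) in the reported fit and 16 alternative settings (columns), where a dot marks an adjusted p under 0.05. The dots of HNRNPM, SRSF3, HNRNPU and SRSF2 run through every setting on counts, and no dot stands in the columns of limma on TPM.

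The stability of the calls differed among members, and calls lost with a library left out are given above with each gene. With each library left out in turn, the median log2 fold change ran from 0.19 to 0.21 for HNRNP. For SRSF it ran from 0.17 to 0.23, and for all genes tested from -0.0090 to -0.0027. On log2(TPM + 1), limma called 0 members of either family, with 4 HNRNP and 3 SRSF members higher at an unadjusted p under 0.05, and it called 0 of all genes higher. At that unadjusted p, 743 of the 14458 genes tested were higher (5.14%) and 1606 lower (11.1%). The fold changes on that scale had medians of 0.16 for HNRNP and 0.16 for SRSF.

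Reads from pseudogenes were examined because both families have many copies in the genome. The 135 pseudogenes had 1228 to 1481 counts in sum per library, or 1.3% to 1.74% of the counts of the members, and 96 of them had a count. Adding the counts of each named pseudogene to its member left 13 HNRNP and 5 SRSF members called. The median log2 fold change went from 0.194 to 0.183 for HNRNP and stayed at 0.215 for SRSF. HNRNPA3 went from 0.320 to 0.267, near the 0.264 of HNRNPA2B1, and HNRNPC from 0.207 to 0.185. The posterior SD of the count of the called members was at most 1.22% in HNRNP and 1.14% in SRSF.

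The mix of transcripts was examined through the mean transcript length that RSEM gives per gene, which weights each annotated transcript by its estimated share. A shift in splicing toward a longer or shorter form would move this value, whereas forms of like length would not. Of the members, 18 HNRNP and 11 SRSF genes that passed the count filter had a length that varied and were tested, and 0 were called (limma on log2 length, Benjamini-Hochberg over 12201 genes, 0 called of all genes or 0% and 6.72% at an unadjusted p under 0.05). The median absolute difference between conditions was 0.03 on the log2 scale in HNRNP and 0.04 in SRSF. HNRNPLL was the only member with an unadjusted p under 0.05, with mean lengths of 1894 and 2041 bases before and 1751 and 1711 bases after hemin (log2 difference -0.18, limma adjusted p = 0.735). Next in order of p were SRSF10, at 1967 and 1961 bases before and 1893 and 1909 bases after hemin (-0.05, limma adjusted p = 0.904), and HNRNPUL2 (0.07, limma adjusted p = 0.905). For genes with many annotated forms, such as HNRNPA1 with 84, reads of 50 bases leave the estimated shares uncertain.

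RNA-binding proteins that belong to the hnRNP complexes under other names were counted next. Of 28 such symbols, carried by 29 gene identifiers because MATR3 has a pair of them, 27 were tested, 18 rose and 0 fell, with a median log2 fold change of 0.21. The share of all genes tested that rose was 7.00%, or 25.8% of those with at least 1000 counts, and the count of each list is read against it. Of the hnRNP-type genes, 19 had at least 1000 counts, of which 15 rose. Without untreated replicate 1, 11 of the list were called higher. RBMXL1, a copy of RBMX, went from 364 and 314 counts to 469 and 482 (0.48 ± 0.08, edgeR adjusted p = 0.00436). SYNCRIP, the relative of HNRNPR, went from 1520 and 1471 to 1873 and 2111 counts (0.40 ± 0.04, edgeR adjusted p = 0.00069). In both genes the treated counts stood above the untreated ones.

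SR-related proteins carry serine-arginine repeats without being classical SR proteins. Of 32 tested, 23 had a positive fold change, against 49.1% of all genes tested and 65.1% of those with at least 1000 counts. Of the 32, 10 rose and 1 fell, with a median of 0.10, against 7.00% and 7.14% of all genes tested. Among genes with at least 1000 counts 25.8% rose and 9.94% fell, and 8 of 18 such genes in this list rose. BCLAF1, a partner of THRAP3 in mRNA processing, went from 1148 and 1063 to 1540 and 1721 counts (0.55 ± 0.04, edgeR adjusted p = 0.000211). CCAR1 rose by 0.46 ± 0.05 (edgeR adjusted p = 0.000913) and SAFB, which binds both RNA and chromatin, by 0.32 ± 0.05 (edgeR adjusted p = 0.00383). LUC7L, a U1 snRNP factor, went the other way, from 1215 and 1081 to 929 and 1046 counts, and fell by 0.23 ± 0.05 on the log2 scale (edgeR adjusted p = 0.0209). DESeq2 did not call LUC7L (adjusted p = 0.0618), and in edgeR the call was lost without untreated replicate 1 and without hemin replicate 1 (highest adjusted p = 0.116).

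**Figure D5:**
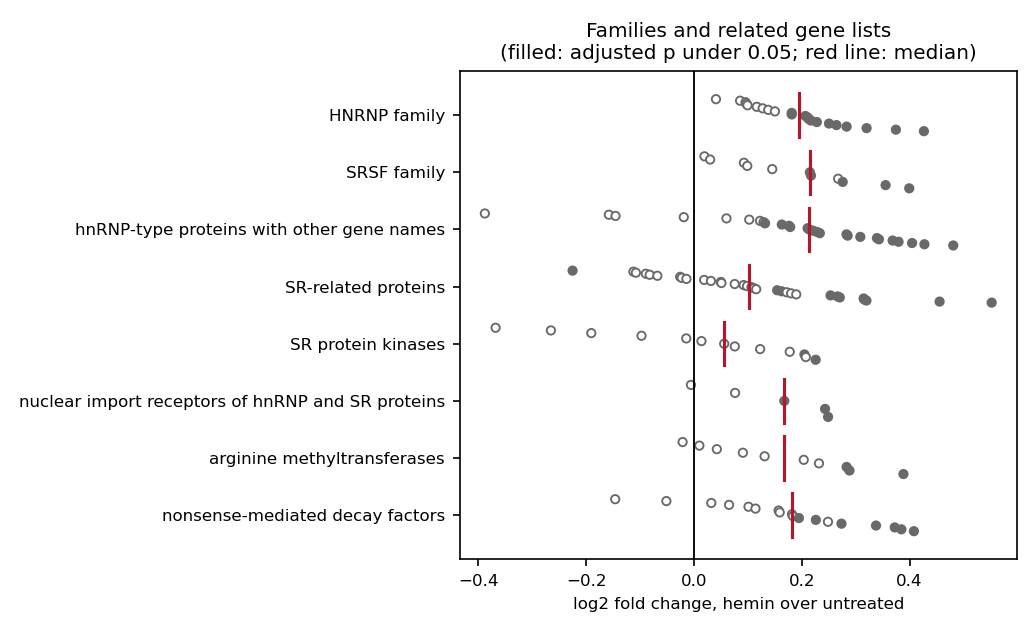
Log2 fold change (x axis, hemin over untreated) of each gene tested in the HNRNP and SRSF families and in 6 related lists (y axis), with filled points for an adjusted p under 0.05 and a red line at the median. The 2 families and the hnRNP-type list have medians of 0.19 to 0.22, and the SR protein kinases have the lowest median, 0.06.

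The enzymes and carriers that act on these proteins were counted in the same way. Of 13 SR protein kinases and related kinases, 2 rose and 0 fell, namely SRPK1, which phosphorylates SR proteins in the cytoplasm (0.20 ± 0.05, edgeR adjusted p = 0.0262), and DYRK1A (0.23 ± 0.06, edgeR adjusted p = 0.0381). Of the kinases, 0 were called without untreated replicate 1, and 1 with each other library left out, with scaling by total alone and by DESeq2 (adjusted p = 0.0803 for DYRK1A). Of 5 import receptors, 3 rose, the transportins TNPO2 (0.25 ± 0.05, edgeR adjusted p = 0.0126) and TNPO1 (0.24 ± 0.05, edgeR adjusted p = 0.0116), which carry hnRNP proteins into the nucleus, and KPNB1 (0.17 ± 0.04, edgeR adjusted p = 0.0228). Without untreated replicate 1 the number of receptors called was 1 and without untreated replicate 2 it was 2, with a highest edgeR adjusted p over the libraries left out of 0.0699 for TNPO2, 0.0740 for TNPO1 and 0.113 for KPNB1. TNPO3, the receptor of SR proteins, was not called. The list of arginine methyltransferases also held CLNS1A and WDR77, partners of PRMT5 that are not methyltransferases. Of its 10 genes tested, 3 rose. PRMT1, the main enzyme that methylates hnRNP proteins, went from 705 and 749 to 954 and 960 counts (0.39 ± 0.07, edgeR adjusted p = 0.00645). The others were PRMT6 (0.29 ± 0.08, edgeR adjusted p = 0.0431) and PRMT7 (0.28 ± 0.06, edgeR adjusted p = 0.0202). Of the methyltransferases, 1 was called by DESeq2, which gave adjusted p = 0.193 for PRMT6 and 0.0721 for PRMT7. With a library left out, 1 was called in 3 of the 4 edgeR fits and 3 without hemin replicate 2, and the highest adjusted p was 0.206 for PRMT6 and 0.0873 for PRMT7.

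Factors of nonsense-mediated decay, the pathway through which many SR genes limit themselves, rose in 7 of 18 cases and fell in 0, with a median of 0.18. The exon junction protein EIF4A3 went from 539 and 507 to 693 and 702 counts (0.41 ± 0.06, edgeR adjusted p = 0.0036), and its partner MAGOH from 284 and 290 to 377 and 370 counts (0.37 ± 0.08, edgeR adjusted p = 0.0202). SMG9 stood at low counts, 134 and 131 before and 169 and 179 after hemin (0.38 ± 0.11, edgeR adjusted p = 0.0402). DESeq2 called 5 of the decay factors, without SMG9 (adjusted p = 0.242) and MAGOH (adjusted p = 0.0503), and edgeR called 3 without untreated replicate 2 and 4 without hemin replicate 2. Of all genes with at least 1000 counts, 25.8% rose and 9.94% fell. At that level 1 of 2 kinases, 2 of 3 import receptors and 2 of 5 decay factors rose. On the methyltransferase list it was 0 of 2. Over the 6 lists, at any count, 43 of 105 genes tested rose and 1 fell, against 7.00% and 7.14% of all genes tested. Without untreated replicate 1 the number that rose was 26, with 469 of all genes, and without untreated replicate 2 it was 27, with 537 of all genes.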

How the data were processed

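Poly(A) RNA of 4 K562 libraries was sequenced in reads of 50 bases. The authors trimmed the reads with Trimmomatic 0.39 and quantified them with RSEM 1.3.1 and STAR on Ensembl 106 (GRCh38). The deposited expected counts are estimated reads per gene, not normalized, with shared reads divided between genes. The deposited posterior mean counts and posterior SDs come from RSEM's sampling, and the deposited TPM are scaled by effective length. The mean transcript lengths are in bases. The authors' own differential results were made from a separate count and were not used.

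Here expected counts were rounded, and filterByExpr kept 14458 genes. TMM factors were applied before edgeR 4.0.16 was run (quasi-likelihood test, condition as the only term, Benjamini-Hochberg, threshold 0.05) in R 4.3.3. The common dispersion was 0.001179. The SE is the log2 fold change divided by the root of the F statistic. Lengths were tested with limma 3.58.1. Coordinates are from GENCODE 44 (GRCh38), which matched 99.84% of gene identifiers and all 38 members. A count of 0 allows up to 3 counts. The scripts' fits were tested on simulated counts.

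Members and lists were chosen with earlier results of these data known. Values in every library were given for called members among the 8 largest changes of a family, for the 3 most abundant members of each family and for members with a near-identical copy, and from each list at most 3 called genes per direction. A further gene that this rule names is not reported here. Values of other members were picked after they were seen. Alternatives were RLE scaling, library size only, scaling without mitochondrial genes, DESeq2 1.42.0, no filter or at least 20 counts, a replicate block, each library left out, posterior mean counts, limma on log2(TPM + 1) and log2(TPM + 0.1), and, added after the data were seen, pseudogene counts added to members and a background of genes with at least 1000 counts.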

Additional observations from a re-analysis of the deposited data

How the results depend on the processing

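No member was called lower in any of the 16 alternatives. Members called higher numbered 12 to 15 HNRNP and 5 to 7 SRSF in the alternatives on counts that kept all libraries, 8 to 12 HNRNP and 4 to 6 SRSF with each library left out, and 0 and 0 by limma on log2(TPM + 1), on log2(TPM + 0.1) and without a filter. Limma also called 0 related genes higher and 0 lower, and 0 of all genes higher and 0 to 2 lower. The cause was not tested. Leaving out each library gave 26 to 36 related genes higher and 0 to 1 lower, and DESeq2 called 0 lower. Of all genes, DESeq2 called 602 higher and 481 lower, and leaving out each library gave 469 to 934 and 512 to 884. Where this left 1 library in a condition, its spread was taken from the other condition. The difference in family share of TPM was 0.143 percentage points for HNRNP and 0.035 for SRSF without mitochondrial genes, against 0.110 and 0.027.

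Signs turned only in members that were not called. With limma on log2(TPM + 1), with and without a filter, and on log2(TPM + 0.1), the values were -0.0159 and -0.016 for HNRNPH3, -0.00175 and -0.00172 for HNRNPUL2, -0.0573 and -0.0578 for SRSF4, and -0.000217 and -0.000194 for SRSF9. With library size only, SRSF11 was at -0.00877 and SRSF4 at -0.0194. HNRNPA1L2 was at -0.337 with posterior mean counts and between -6.72 and 6.78 with each library left out. The same ranges were -0.0457 to 0.31 for HNRNPUL2-BSCL2, -0.0135 to 0.0781 for SRSF11 and -0.0704 to 0.122 for SRSF4.

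No label names a batch for same-numbered libraries. Their deviations from the group means correlated at 0.00473 over the genes tested. Counting error enters these deviations, so the value cannot decide whether a batch was shared. With the replicate block, 12 HNRNP and 5 SRSF members were called higher (HNRNPR was lost), 39 related genes higher and 1 lower, and 0 members were called in mean transcript length.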
